A study of Mus musculus with 6 samples.

Results

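Notch signalling in mouse prostate was described through 10 genes, namely the receptors Notch1, Notch2, Notch3 and Notch4, the ligands Jag1, Jag2, Dll1 and Dll4, and the target genes Hes1 and Hey1. The genes were taken by symbol from a deposited table of 24091 genes, all 10 were found, and all 10 had enough counts to be tested. Values are read counts per gene from RNA sequencing of 6 libraries, 2 in each of 3 groups. The 12Q group was prostate tumors of male mice with a humanised allele whose polyglutamine tract has 12 glutamines, and the 48Q group was tumors of males in which that tract has 48 glutamines. Both tumor groups also carried 1 conditional allele of exon 3 of the β-catenin gene, written Ctnnb1(Ex3)L/wt in the labels, and the PBCre-4 transgene, in which a probasin promoter drives Cre recombinase in prostate epithelium. Normal prostates of wild-type mice made up the WT group, and these had neither the humanised allele, the β-catenin allele nor Cre, so the effects of these 3 and of the tumor itself cannot be told apart in comparisons with WT. Where Cre acted was not measured here, neither in epithelium nor in blood vessels and other stroma of the tumors. The labels used here state neither ages nor whether the replicates are different animals, so each p-value reflects only how far these samples vary, and that variation may be technical.

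Notch receptors are membrane proteins that are cut when they bind a Jagged or Delta-like ligand on a neighbouring cell, first by an ADAM protease and then by γ-secretase. The released intracellular domain joins the DNA-binding protein RBPJ and Mastermind proteins in the nucleus and switches on genes such as Hes1 and Hey1, which encode transcriptional repressors. In the prostate the pathway is known for its part in the balance of basal and luminal epithelial cells, in blood vessels Dll4 and Notch4 are typical of endothelium, and Notch3 is typical of the mural cells that wrap vessels.

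Library totals ranged from 26416181 to 28559546 counts, and levels are given as CPM, the count divided by the library total after TMM scaling and multiplied by 1e6. A count of 3 corresponded to between 0.0856 and 0.156 CPM. In WT prostate a single gene, 9530053A07Rik, took 17.4% and 22.8% of all counts, against at most 2.99% for any gene in a tumor library. Ctnnb1, the gene with the conditional allele, stood at 958 and 1035 CPM in 12Q, 1082 and 957 in 48Q, against 669 and 569 in WT, and it passed the test in no comparison (edgeR adjusted p = 0.15, 0.208 and 0.954), while DESeq2 called it higher in 12Q against WT (adjusted p = 0.0372) and library totals in both tumor groups (0.0257 and 0.0311). Reads per gene cannot show a deleted exon, so this does not check the genotypes.

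The question was which parts of the pathway differ between each tumor genotype and normal prostate, and between the tumor genotypes. In 12Q tumors Dll4 was 15.6-fold higher than in WT and Jag2 was 6.18-fold lower, and these were the members past the threshold of an adjusted p of 0.05. That is 2 of 10 members, 1 higher and 1 lower, where 22.4% of the 15050 genes tested were called either way, 11.2% higher and 11.2% lower. At an unadjusted p under 0.05 there were 5 members, beside 38.5% of all genes, and DESeq2 called 4, beside 30.5%. In 48Q tumors against WT 0 of 10 members were called by edgeR, where 5.18% of all genes were called, 3.95% higher and 1.23% lower. Notch1 was the 1 member with an unadjusted p under 0.05, beside 24.9% of all genes, and the 1 that DESeq2 called, beside 16.1%. Between 12Q and 48Q tumors edgeR also called 0 of 10, where 4.17% of all genes were called, 1.01% higher and 3.16% lower in 12Q. Here Notch1 and Jag2 (lower in 12Q) and Dll4 (higher) were the 3 members with an unadjusted p under 0.05, beside 26.3% of all genes, and the 3 that DESeq2 called, beside 15.8%. With so few members called, these shares are not a result about the members as a group. Without WT replicate 1, edgeR called 0 of all genes in 48Q against WT.

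The groups did not overlap for 5 of 10 members in 12Q against WT (3 higher, 2 lower), where 60.5% of all genes did not overlap. The corresponding counts were 9 of 10 in 48Q against WT (7 higher, 2 lower), beside 64.5% of all genes, and 6 of 10 between the tumors (2 higher and 4 lower in 12Q), beside 66.8%. The median log2 fold change of the members was 0.06 for 12Q and 0.67 for 48Q, each against WT, and -0.49 for 12Q against 48Q, and that of all genes was -0.01, 0.02 and 0.00. Both tumor comparisons use the same WT libraries. When library totals replaced TMM, the median of all genes moved to 0.48, 0.71 and -0.18, and the signs of small fold changes below depend on that choice where stated. The split of calls over all genes depended on it too, with 3266 higher and 1032 lower in 12Q against WT (1687 and 1683 with TMM), 1921 and 83 in 48Q against WT (595 and 185), and 62 and 379 in 12Q against 48Q (152 and 475). Of the members, library totals called 2 higher and 1 lower in 12Q against WT.

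**Figure D1:**
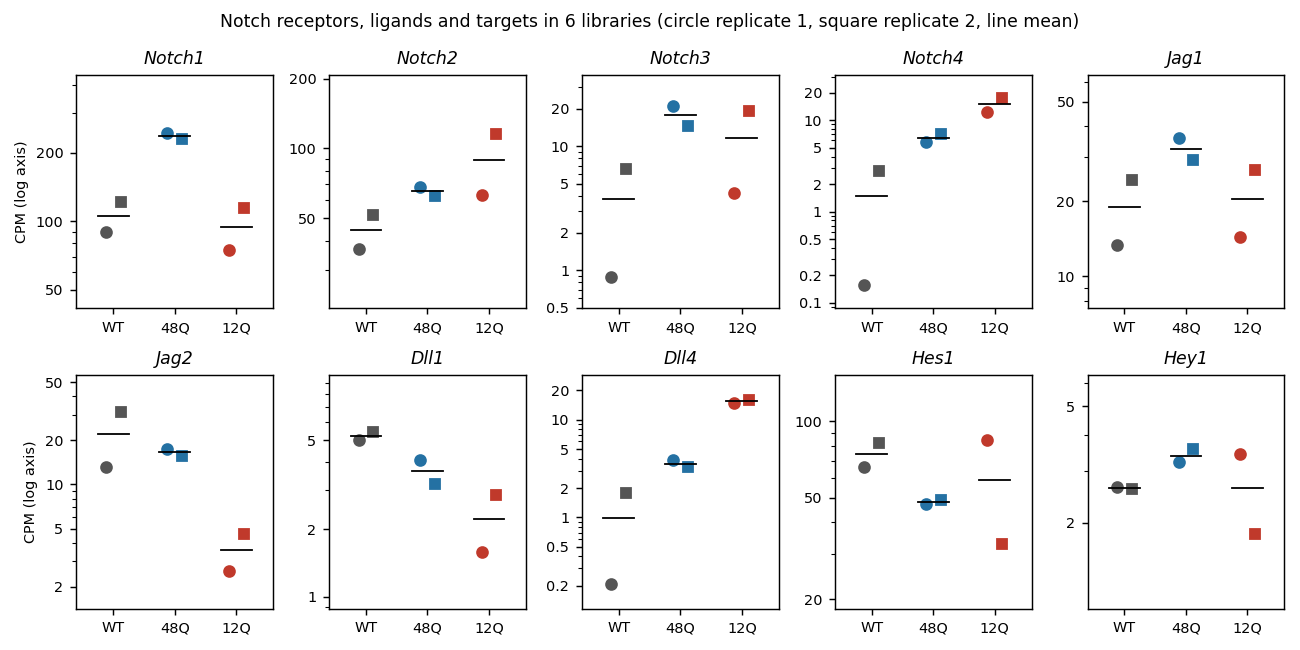
Level of each of the 10 genes in every library, in CPM on a log axis that differs between panels. Circles are replicate 1, squares replicate 2 and lines the arithmetic mean of 2 libraries, and Dll4 and Notch4 lie highest in both 12Q libraries while Jag2 lies lowest there.

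Notch1 (mm10, chromosome 2, 26457902 to 26503822), the receptor best known from epithelium and T cells, was measured at 74.5 and 115 CPM in 12Q, 246 and 231 in 48Q, against 90.0 and 121 in WT. Both 48Q libraries lay above all 4 others, and 12Q overlapped with WT. The mean of 48Q was 2.26-fold that of WT (log2 fold change 1.17, SE 0.295, 95% interval 0.461 to 1.89), which did not pass the threshold (edgeR adjusted p = 0.0729). It was called with DESeq2 (adjusted p = 0.0113), with library totals (0.0299), with 48Q and WT alone in the fit (0.0484) and without 12Q replicate 1 (0.0474) or 12Q replicate 2 (0.0478). Against 48Q, the 12Q mean was 2.52-fold lower (log2 fold change -1.33, SE 0.296, 95% interval -2.05 to -0.619, edgeR adjusted p = 0.0591). In 12Q against WT the log2 fold change was -0.16 (95% interval -0.865 to 0.544, edgeR adjusted p = 0.718), and it was 0.34 with library totals.

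Notch2 (chromosome 3, 98013538 to 98150367), a second widely expressed receptor, stood at 63.0 and 116 CPM in 12Q, 67.9 and 62.6 in 48Q, against 36.8 and 51.8 in WT. Both tumor groups lay above WT without overlap, and they overlapped with each other. In 12Q the mean was 2.02-fold that of WT (log2 fold change 1.01, SE 0.345, 95% interval 0.18 to 1.84, edgeR adjusted p = 0.081). That difference was called with library totals (adjusted p = 0.0386), with DESeq2 (0.0464) and without 12Q replicate 1 (0.0294). In 48Q the log2 fold change was 0.56 (95% interval -0.268 to 1.39, edgeR adjusted p = 0.355).

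Notch3 (chromosome 17, 32120893 to 32166852) was measured at 4.18 and 19.1 CPM in 12Q, 21.1 and 14.7 in 48Q, against 0.887 and 6.59 in WT. The libraries of 12Q and of WT lay far from each other within their group, and both 48Q libraries lay above both WT libraries. The log2 fold change was 2.25 in 48Q against WT (95% interval -0.254 to 4.75, edgeR adjusted p = 0.237) and 1.63 in 12Q against WT (95% interval -0.826 to 4.09, edgeR adjusted p = 0.284). Intervals of this width allow from a lower level to one many times higher.

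Notch4 (chromosome 17, 34226175 to 34588543) stood at 12.3 and 17.6 CPM in 12Q, 5.75 and 7.04 in 48Q, against 0.157 and 2.79 in WT, where it had 3 and 63 counts. The 3 groups did not overlap, with 12Q highest and WT lowest. The 12Q mean was 10.2-fold that of WT (log2 fold change 3.32, SE 1.06, 95% interval 0.766 to 5.88), which did not pass the threshold (edgeR adjusted p = 0.0688). It was called with DESeq2 (adjusted p = 0.00229), at 2.43 without WT replicate 1 (0.0381) and at 6.53 without WT replicate 2 (0.0176). For Notch4 in 48Q the log2 fold change against WT was 2.10 (edgeR adjusted p = 0.255), 1.20 without WT replicate 1 (0.247) and 5.31 without WT replicate 2 (0.0374). The interval that the table gives for Notch4 spans 362 kb, against 24.2 kb for the gene in the GENCODE M21 annotation of mm10, so its counts may include reads from outside that gene.

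Among the ligands, Dll4 (chromosome 2, 119325784 to 119335666) had the largest fold change of the 10 members in 12Q against WT. The 12Q libraries held 402 and 519 counts of it (14.9 and 16.1 CPM), those of 48Q 128 and 114 (3.85 and 3.25 CPM), and those of WT 4 and 40 (0.209 and 1.77 CPM). The 3 groups did not overlap, and the WT libraries differed from each other by a larger ratio than those of either tumor group did. The log2 fold change of 12Q against WT was 3.94 (SE 0.886, 95% interval 1.8 to 6.08, edgeR adjusted p = 0.027). This call was lost without 12Q replicate 1 (4.05, adjusted p = 0.0579) and without 12Q replicate 2 (3.89, adjusted p = 0.074). It held without WT replicate 1, at 3.13, and without WT replicate 2, at 6.18. In 48Q the mean was 3.59-fold that of WT (log2 fold change 1.82, 95% interval -0.179 to 3.83, edgeR adjusted p = 0.231), a difference called without WT replicate 2 (4.05, adjusted p = 0.0393). Against 48Q, Dll4 was 4.35-fold higher in 12Q (log2 fold change 2.12, SE 0.805, 95% interval 0.177 to 4.06), which did not pass (edgeR adjusted p = 0.163). It was called with 12Q and 48Q alone in the fit (adjusted p = 0.0403), with DESeq2 (0.0333) and without WT replicate 1 (0.0402) or WT replicate 2 (0.0414).

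Jag2 (chromosome 12, 112908590 to 112929495), a ligand known from epithelium and endothelium, was lower in 12Q. It stood at 2.55 and 4.61 CPM in 12Q, 17.4 and 15.8 in 48Q, against 13.1 and 31.1 in WT. Both 12Q libraries lay below all 4 others, and 48Q lay within the range of WT. The log2 fold change of 12Q against WT was -2.62 (SE 0.532, 95% interval -3.91 to -1.34, edgeR adjusted p = 0.0203). The call was lost without 12Q replicate 1 (-2.21, adjusted p = 0.0693) and without WT replicate 2 (-1.88, adjusted p = 0.0538). Against 48Q, Jag2 was 4.63-fold lower in 12Q (log2 fold change -2.21, SE 0.524, 95% interval -3.47 to -0.942, edgeR adjusted p = 0.0658), and this was called with DESeq2 (adjusted p = 0.00125) and without WT replicate 1 (0.0487). For 48Q against WT the log2 fold change was -0.42 (95% interval -1.62 to 0.786, edgeR adjusted p = 0.641), and it was 0.23 with library totals.

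Jag1 (chromosome 2, 137081451 to 137116520), a ligand known from vessel and epithelial development, was measured at 14.4 and 26.6 CPM in 12Q, 35.7 and 29.3 in 48Q, against 13.4 and 24.4 in WT. Both 48Q libraries lay above all others, while 12Q and WT covered almost the same range. The log2 fold change was 0.11 in 12Q against WT (95% interval -0.911 to 1.14, edgeR adjusted p = 0.867) and 0.78 in 48Q against WT (95% interval -0.249 to 1.81, edgeR adjusted p = 0.304). Dll1 (chromosome 17, 15367354 to 15375823), a ligand known from embryonic patterning, stood at 1.59 and 2.85 CPM in 12Q, 4.09 and 3.19 in 48Q, against 5.01 and 5.44 in WT. Its 3 groups did not overlap, with WT highest and 12Q lowest, and no difference passed. Its log2 fold changes were -1.23 in 12Q (95% interval -2.43 to -0.0301, edgeR adjusted p = 0.123) and -0.52 in 48Q (95% interval -1.70 to 0.662, edgeR adjusted p = 0.546), the latter 0.17 with library totals.

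**Figure D2:**
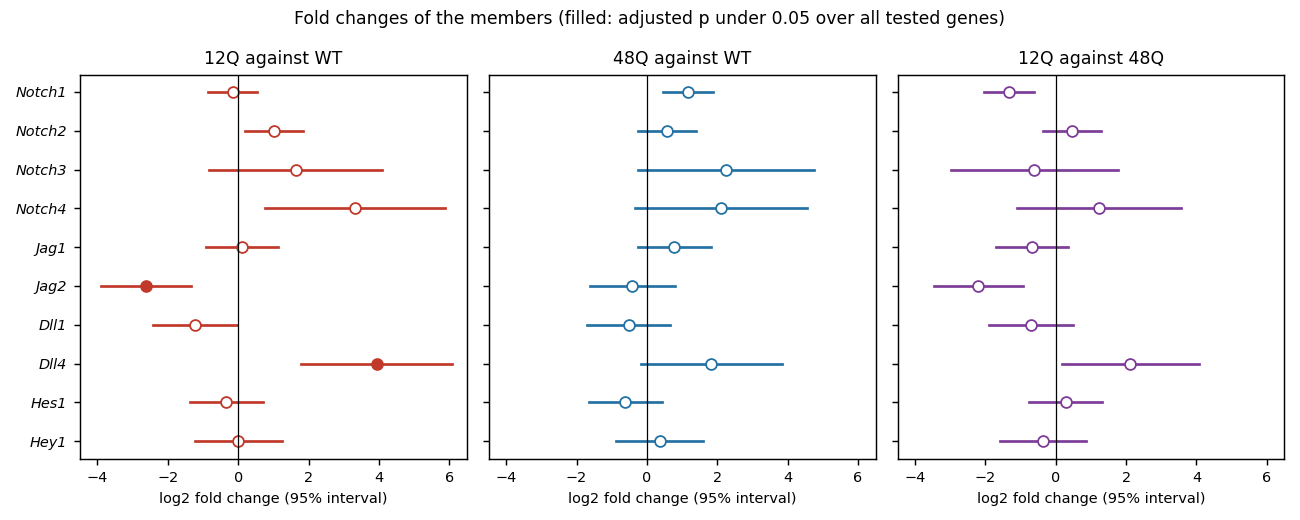
Fitted log2 fold changes of the 10 genes in the 3 comparisons, with 95% intervals. Filled points mark an adjusted p under 0.05 over all genes tested, which only Jag2 and Dll4 reached, both in 12Q against WT, and the intervals of Notch3, Notch4 and Dll4 are the widest.

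The starts of Dll4 and Jag2, the ligands that passed the test and went in opposite directions, are shown to give the sequence context of both genes. Each is the RefSeq entry for GRCm38.p6 from 250 bases before the start site to 50 bases from it, 5′ to 3′ on the strand of the gene, with matches to the searched motifs in capitals. Dll4 lies on the plus strand at chr2:119325534-119325833 and Jag2 on the minus strand at chr12:112929446-112929745.
Dll4: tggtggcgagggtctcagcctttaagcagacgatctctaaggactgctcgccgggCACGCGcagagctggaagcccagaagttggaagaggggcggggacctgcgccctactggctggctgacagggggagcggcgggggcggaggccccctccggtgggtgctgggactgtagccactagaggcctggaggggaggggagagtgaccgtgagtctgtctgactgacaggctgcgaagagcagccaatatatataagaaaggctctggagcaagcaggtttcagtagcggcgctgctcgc
Jag2: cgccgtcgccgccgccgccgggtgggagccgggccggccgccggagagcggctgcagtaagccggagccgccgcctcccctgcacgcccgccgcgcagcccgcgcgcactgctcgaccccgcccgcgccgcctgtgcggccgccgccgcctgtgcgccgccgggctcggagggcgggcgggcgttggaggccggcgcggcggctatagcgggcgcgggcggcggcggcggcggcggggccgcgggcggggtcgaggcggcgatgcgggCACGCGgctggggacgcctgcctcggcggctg
The motifs were TGGGAA (core of the RBPJ site), CTTTGAT and CTTTGAA (forms of the site of TCF/LEF, the partners of β-catenin), CACGTG (an E box) and CACGCG (a class C site bound by Hes and Hey proteins), each searched on both strands. CACGTG reads the same on both strands, and none of the matches overlapped another. The capitals mark CACGCG, which was found 1 time in each window, from position -195 in Dll4 and from position 19 in Jag2, counted from the start site as position 1. Of 32851 promoters of that length, 9.27% hold CACGCG, 25.6% TGGGAA, 3.73% CTTTGAT, 5.14% CTTTGAA and 7.15% CACGTG. The table held entries for 8 of the 10 members, all but Hes1 and Hey1. CACGCG was also found in Notch2, in Jag1 (2 times) and in 1 of the entries of Dll1, and the other motifs had no match in any member's window. The window of Jag2 was 86% G and C and that of Dll4 63.7%.

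Neither target passed the test in any comparison. Hes1 (chromosome 16, 30065357 to 30067796) was measured at 84.5 and 33.0 CPM in 12Q, 47.2 and 49.0 in 48Q, against 66.2 and 81.9 in WT. The 12Q libraries lay on either side of all 4 others, and both 48Q libraries lay below both WT libraries. The log2 fold change was -0.34 in 12Q against WT (95% interval -1.37 to 0.701, edgeR adjusted p = 0.60) and -0.62 in 48Q against WT (95% interval -1.66 to 0.417, edgeR adjusted p = 0.408), and with library totals it was 0.13 and 0.06. Without 12Q replicate 1 the value of 12Q was -1.12 (adjusted p = 0.0423), and without 12Q replicate 2 it was 0.19 (0.584), so this comparison rests on which 12Q library is used.

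Hey1 (chromosome 3, 8663359 to 8667038) stood at 3.44 and 1.83 CPM in 12Q, 3.22 and 3.56 in 48Q, against 2.66 and 2.61 in WT. The 12Q libraries again lay on either side of the WT libraries, and 48Q lay above WT by less than 1 CPM. Its log2 fold change was 0.00 in 12Q against WT (95% interval -1.24 to 1.24, edgeR adjusted p = 1.0) and 0.36 in 48Q against WT (95% interval -0.874 to 1.60, edgeR adjusted p = 0.695). No difference between the tumor groups passed for Hes1 (0.29, edgeR adjusted p = 0.696) or Hey1 (-0.37, edgeR adjusted p = 0.672).

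To compare levels between genes, CPM were divided by the gene length in kilobases that the table gives. On this scale of level per kilobase, Hes1 was the highest member in every group, at 40.6 ± 25.2 (12Q), 33.3 ± 0.871 (48Q) and 51.2 ± 7.64 (WT), each with its SD over n = 2, and both libraries of each group lay above those of Notch1, the second. Notch1 was at 9.73 ± 2.92, 24.5 ± 1.12 and 10.9 ± 2.28 per kilobase. In 12Q, Notch1 overlapped with Notch2 (8.32 ± 3.47), followed by Dll4 (4.50 ± 0.244), which overlapped with Jag1 (3.74 ± 1.58). Below these, Notch4 (2.14 ± 0.537), Notch3, Hey1, Jag2 and Dll1 (0.649 ± 0.26) each overlapped with the next. In 48Q the order after Notch1 was Notch2 (6.07 ± 0.349) and Jag1 (5.94 ± 0.823), which overlapped, then Jag2 (4.12 ± 0.287), Notch3, Hey1, and at the end Dll1, Dll4 and Notch4, the last 3 overlapping in turn. In WT, Jag2 (5.50 ± 3.16), Notch2 (4.12 ± 0.99) and Jag1 (3.46 ± 1.42) overlapped in turn, Dll1 (1.53 ± 0.0892) and Hey1 (1.20 ± 0.0165) came next without overlap, and Notch3 (0.473 ± 0.51), Dll4 (0.287 ± 0.321) and Notch4 (0.211 ± 0.266) were lowest and overlapped likewise.

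The makeup of the ligands differed between 12Q and the other groups. Dll4 made up 53.7% and 40.6% of the summed level per kilobase of the 4 ligands in 12Q, 8.51% and 8.47% in 48Q, against 0.838% and 3.6% in WT. Jag2 made up 7.87% and 9.95% in 12Q, 32.8% and 35.1% in 48Q, against 45.1% and 54.0% in WT. Jag1 made up 32.6% and 42.2% in 12Q, 49.6% and 48.1% in 48Q, against 33.9% and 31.2% in WT, and Dll1 the rest. The share of Dll4 was highest and that of Jag2 lowest in both 12Q libraries. The order of Jag1 and Jag2 in WT depends on the gene length used, with mean shares of 32.6% and 49.6% by the table's lengths and 41.3% and 38.8% by the exon union of the GENCODE M21 annotation. The summed level of the 4 ligands itself overlapped between the groups, at 8.05 and 11.5 per kilobase in 12Q, 13.2 and 11.2 in 48Q, against 7.24 and 14.3 in WT.

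Among the receptors, Notch1 made up 48.5% and 42.9% of the summed level per kilobase in 12Q, 72.1% and 73.2% in 48Q, against 72.2% and 67.4% in WT. Notch2 made up 37.1% and 39.2% in 12Q, 18.0% and 18.0% in 48Q, against 26.7% and 26% in WT. Notch4 made up 11.1% and 9.16% in 12Q, 2.35% and 3.11% in 48Q, against 0.175% and 2.15% in WT. Notch3 made up 3.34% and 8.79%, 7.57% and 5.72%, and 0.875% and 4.49%. Both 12Q libraries had the lowest share of Notch1 and the highest shares of Notch2 and Notch4. With M21 exon unions the mean share in 12Q was 37.2% for Notch1 and 45.2% for Notch2, against 45.7% and 38.2% with the table's lengths. The summed receptor level was 15.8 and 27.5 per kilobase in 12Q, 35.1 and 32.4 in 48Q, against 12.8 and 18.5 in WT, highest in both 48Q libraries. With 2 libraries against 2, an exact two-sided permutation test cannot give a p below 0.333, so the shares are given without a test.

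**Figure D3:**
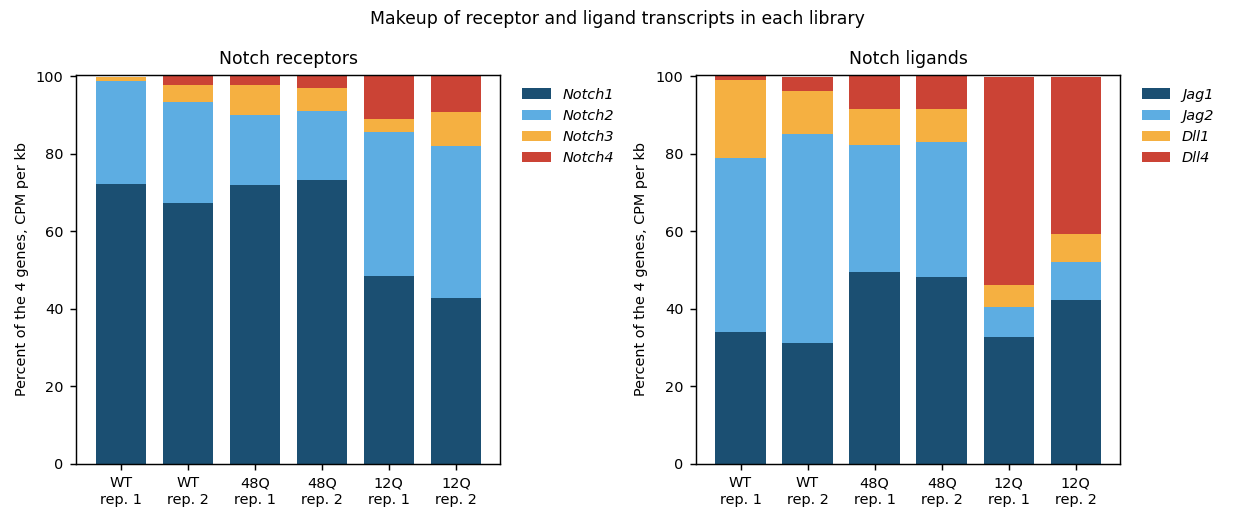
Share of each receptor (left) and each ligand (right) in the summed CPM per kilobase of its 4 genes, 1 bar for each library. Dll4 takes 53.7% and 40.6% of the ligand bars of 12Q and at most 8.51% elsewhere, and Notch1 takes less of the receptor bars in 12Q than in 48Q or WT.

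Most endothelial markers were higher in 12Q than in WT, as Dll4 and Notch4 were. Of 10 endothelial markers 5 were called higher and 1 lower in 12Q against WT (median log2 fold change 2.29). In 48Q against WT 1 was higher and 1 lower (median 1.44), and the lower one was Emcn, an endothelial sialomucin, in both. The shares of all genes to set beside this and the later marker lists were 11.2% each way in 12Q against WT. They were 3.95% higher and 1.23% lower in 48Q against WT, and 1.01% higher and 3.16% lower in 12Q against 48Q. Between 12Q and 48Q edgeR called 0 of the 10, with 1 at an unadjusted p under 0.05. Cdh5, which encodes the adhesion protein VE-cadherin, stood at 71.2 and 72.4 CPM in 12Q, 24.2 and 25.2 in 48Q, against 3.39 and 12.8 in WT. Vwf, the von Willebrand factor gene, stood at 51.6 and 108 CPM in 12Q, 27.4 and 32.1 in 48Q, against 2.5 and 15.8 in WT. The summed level of the 10 markers was 294 and 329 CPM in 12Q, 154 and 155 in 48Q, against 80.6 and 118 in WT, and no marker of the 10 was at 0 counts in any library. As a percent of that sum, Dll4 was at 5.06 and 4.89 in 12Q, 2.5 and 2.10 in 48Q, against 0.259 and 1.5 in WT. The groups did not overlap on this ratio either, but the sum in WT holds much Emcn. Emcn stood at 17.43 and 10.8 CPM in 12Q, 11.02 and 9.411 in 48Q, against 59.62 and 40.1 in WT. Whether 48Q and WT stay apart on ratios to the sum without Emcn was not tested. Notch4 was at 4.18 and 5.35 percent of the sum in 12Q, 3.74 and 4.55 in 48Q, against 0.194 and 2.37 in WT, where 12Q and 48Q overlapped. As a percent of Cdh5 alone, Dll4 was at 20.9 and 22.2 in 12Q, 15.9 and 12.9 in 48Q, against 6.15 and 13.8 in WT. On that ratio 48Q and WT overlapped for Dll4. For Notch4 it was 17.3 and 24.3 in 12Q, 23.7 and 27.9 in 48Q, against 4.62 and 21.8 in WT. In bulk tissue, more cells of a type and more RNA per cell cannot be told apart.

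**Figure D4:**
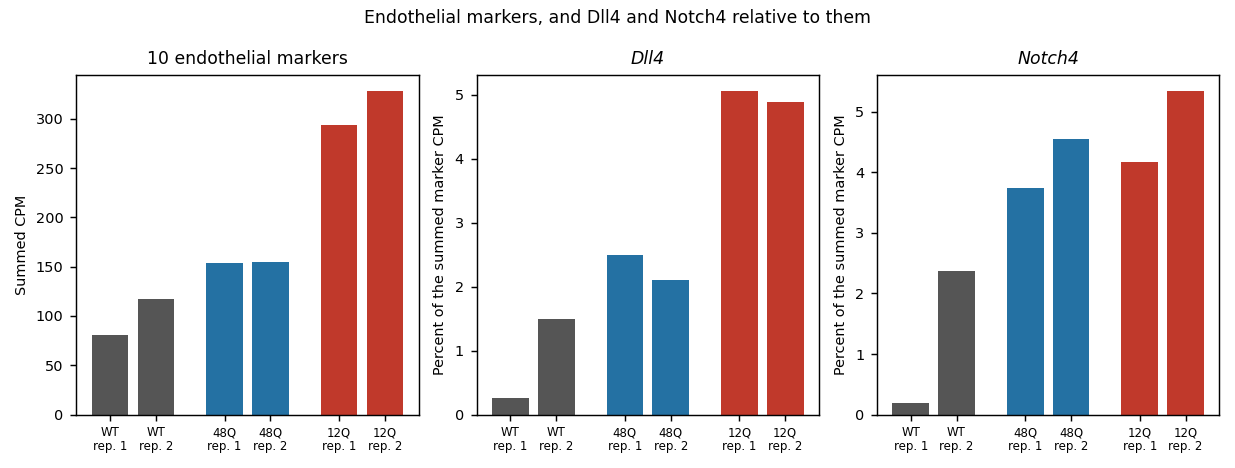
Summed CPM of 10 endothelial markers in each library (left), and Dll4 (middle) and Notch4 (right) as a percent of that sum. The marker sum is highest in both 12Q libraries, Dll4 relative to it is also highest there, and Notch4 relative to it overlaps between 12Q and 48Q.

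For Notch3 the markers of mural cells and smooth muscle are of interest. Of 10 such markers edgeR called 7 lower in 12Q and 2 lower in 48Q, each against WT, and 5 lower in 12Q relative to 48Q, and none higher. Their sum, led by Myh11 and Acta2 of contractile smooth muscle, was 117 and 102 CPM in 12Q, 1005 and 440 in 48Q, against 2308 and 5952 in WT, an order unlike that of Notch3. Pdgfrb, a receptor of pericytes in that list, stood at 11.3 and 17.6 CPM in 12Q, 36.1 and 30.9 in 48Q, against 1.46 and 9.29 in WT. Its group means had the same order as those of Notch3, as had those of Rgs5 (98.85 in 48Q, 49.33 in 12Q, 13.67 in WT). The means of Cspg4 had another order (13.04 in 48Q, 7.094 in 12Q, 8.815 in WT), and the 7 markers called lower in 12Q had that of the sum. As a percent of Pdgfrb, Notch3 was at 36.9 and 108 in 12Q, 58.3 and 47.6 in 48Q, against 60.7 and 71.0 in WT, with 48Q and WT both inside the range of 12Q. The same held as a percent of Rgs5, at 7.02 and 48.9 in 12Q, 20.6 and 15.4 in 48Q, against 32.1 and 26.8 in WT.

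Most basal epithelial markers were lower in 12Q, as Jag2 was. Of 8 basal markers 1 (Itgb4) was higher and 6 lower in 12Q against WT (median log2 fold change -5.94), and 5 were lower in 12Q against 48Q. In 48Q against WT edgeR called 0 of 8, with 2 at an unadjusted p under 0.05, beside 24.9% of all genes. Trp63, the p63 gene of basal cells, stood at 0.037 and 0.186 CPM in 12Q, 29.6 and 24.2 in 48Q, against 33.9 and 42.9 in WT. The summed level of the 8 markers, led by Dst and Itgb4, was 179 and 223 CPM in 12Q, 638 and 561 in 48Q, against 1286 and 796 in WT, and Dsc3 was at 0 counts in 12Q replicate 1. Outside 12Q the sum was lower in both 48Q libraries than in both WT libraries, while Jag2 in 48Q lay within the range of WT. WT replicate 1 had the higher sum but the lower Jag2. These differences in the sum rest largely on Dst, at 299 and 267 CPM in 48Q against 998 and 524 in WT. The 8 markers had a median log2 fold change of 0.04 in 48Q against WT. Of 8 fibroblast markers, led by Dcn and Col1a1, 4 were lower in 12Q against WT and 4 lower against 48Q, with sums of 161 and 464 CPM in 12Q, 1131 and 1012 in 48Q, against 647 and 751 in WT, and Dpt was at 0 counts in both 12Q libraries. The part of any of these cell types in the values of Jag2, Notch3, Notch4 or Dll4 was not tested.

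Other cell types that the tissue could hold are given by their marker lists. Of 8 luminal markers, led by Pbsn and Cd24a, 1 (Pbsn) was lower in 12Q against WT and against 48Q (edgeR adjusted p = 0.0031 and 0.0165). The list summed to 8462 and 6385 CPM in 12Q, 7402 and 5763 in 48Q, against 39070 and 22910 in WT. Much of that sum was Pbsn, at 3.33 and 5.14 CPM in 12Q, 3954 and 2248 in 48Q, against 28210 and 16140 in WT. Cd24a was at 3193 and 1869 CPM in 12Q, 908 and 969 in 48Q, against 3986 and 2141 in WT. Of 10 squamous markers, led by Sprr1a and Sbsn, 5 were higher and 1 lower in 12Q and 3 higher in 48Q against WT, with sums of 335 and 374, 99.2 and 90.0, and 233 and 15.5 CPM, and Krt16 and Cnfn were at 0 counts in both WT libraries. Of 8 macrophage markers, led by Lyz2 and C1qa, 5 were higher and 1 lower in 12Q and 5 higher in 48Q, with sums of 257 and 426, 485 and 494, and 116 and 92.4 CPM. Markers of T and NK cells, led by Cd8a and Cd3g, summed to at most 14.7 CPM and those of neuroendocrine cells, led by Syp and Chga, to at most 2.23 CPM in any library. Seminal vesicle markers, led by Svs4 and Svs5, summed to 26 and 49.2 CPM in 48Q and at most 2.41 elsewhere, and 2 of 6 were higher in 48Q and 1 in 12Q against WT. B and plasma cell markers, led by Jchain and Ms4a1, summed to 120 and 83.5 CPM in 48Q and at most 35.7 elsewhere. Nearly all of that in 48Q was Jchain (117 and 80.8 CPM), while Ms4a1 was highest in WT (0.835 and 3.71 CPM). Skeletal muscle markers, led by Acta1 and Ckm, summed to 73.7 and 201 CPM in WT and at most 8.67 in tumors. Nearly all of that in WT was Acta1 (70.4 and 193 CPM), and only 2 of the 5 markers had enough counts to be tested. WT replicate 1 was lower than WT replicate 2 in the endothelial, mural, fibroblast, T cell, B cell and skeletal muscle sums, and also in 9 of the 10 members, all but Hey1. The part of these cell types in the members' values was not tested.

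Of 58 further genes of the pathway 50 could be tested. In 12Q against WT 8 were called higher, 7 lower and 35 not past, with a median log2 fold change of 0.00, beside -0.01 for all genes, of which 22.4% were called. With library totals the split was 14 higher and 6 lower. In 48Q against WT 2 were higher, 0 lower and 48 not past (median -0.01, beside 0.02), where 5.18% of all genes were called, and with library totals 10 were higher and 0 lower. Between the tumors 0 were called by edgeR (median 0.03, beside 0.00), where 4.17% of all genes were called. There 14 of the 50 had an unadjusted p under 0.05, beside 26.3% of all genes, and DESeq2 called 8, beside 15.8%. Of the 15 calls in 12Q against WT, Lfng, Nrarp and Aph1b held when any 1 of the 6 libraries was left out. Each of the other 12 was lost in at least 1 such fit, and 8 of the 15 held without each 12Q or 48Q library, 10 without WT replicate 1 and 9 without WT replicate 2.

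The next list holds other targets and relatives of Hes1 and Hey1. Whether Notch acts on any of these genes here was not tested. Nrarp, a feedback inhibitor that binds the receptor's intracellular domain, rose in 12Q to 11.4 and 15.3 CPM against 1.36 and 2.26 in WT (log2 fold change 2.88, SE 0.46, edgeR adjusted p = 0.0108), with 5.57 and 6.84 in 48Q. Hes6, a relative of Hes1 known from neural precursors, rose to 38.9 and 24.7 CPM against 10.2 and 11.4 (log2 fold change 1.56, edgeR adjusted p = 0.0209). The call of Hes6 was lost without either WT library or either 48Q library (largest adjusted p = 0.0682). Heyl, of the Hey family, stood at 1.96 and 3.0 CPM in 12Q, 6.44 and 6.22 in 48Q, against 0.626 and 1.46 in WT. The log2 fold change of Heyl in 48Q was 2.59 (SE 0.599), which edgeR did not call (adjusted p = 0.0618) and DESeq2 did (adjusted p = 0.000615). Hey2 was called in no comparison by edgeR (smallest adjusted p = 0.312) or by DESeq2 (smallest adjusted p = 0.185). Of the 9 genes in that list, Hes2, Hes3, Hes5, Hes7 and Ptcra had too few counts to be tested.

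Among enzymes that mature the receptors, 3 of 6 were higher and 0 lower in 12Q, and 1 was higher in 48Q. Of all genes, 11.2% were called higher in 12Q and 3.95% in 48Q, each against WT. Lfng, a Fringe glycosyltransferase that changes which ligands a receptor answers to, rose to 18.2 and 17.7 CPM in 12Q (log2 fold change 2.75, SE 0.409, edgeR adjusted p = 0.00905) and to 11.5 and 9.87 in 48Q (log2 fold change 2.00, SE 0.399, edgeR adjusted p = 0.0466), from 1.93 and 3.40 in WT. The 48Q call of Lfng was lost without either 12Q library, either 48Q library or WT replicate 1 (largest adjusted p = 0.246). Mfng, a second Fringe gene, and Poglut1, which adds glucose to the receptor, also rose in 12Q (log2 fold changes 2.5 and 1.04, edgeR adjusted p = 0.0466 and 0.0309). Mfng was called in only 1 and Poglut1 in 2 of the 6 fits that left out a library.

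Of 9 genes of γ-secretase and the ADAM proteases, 1 was higher and 1 lower in 12Q against WT, where 22.4% of all genes were called. Aph1b, a subunit of γ-secretase, fell to 1.52 and 2.14 CPM in 12Q against 16.9 and 17.1 in WT (log2 fold change -3.21, SE 0.488, edgeR adjusted p = 0.00959), with 6.56 and 3.42 in 48Q (edgeR adjusted p = 0.0772). Adam17, a protease that can cut Notch, rose by 1.10 on the log2 scale in 12Q (edgeR adjusted p = 0.0155), a call lost without either 48Q library (largest adjusted p = 0.0636).

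Ubiquitin ligases that act on the ligands went both ways in 12Q, with 1 of 4 higher and 1 lower, beside 11.2% of all genes each way. Mib1, needed in signal-sending cells, stood at 70.4 ± 7.92 CPM against 150 ± 20.5 in WT (SD, n = 2), a log2 fold change of -1.09 (edgeR adjusted p = 0.0206), lost without 12Q replicate 1 or either 48Q library (largest adjusted p = 0.0766) and with library totals (-0.57, adjusted p = 0.0849). Neurl1a, of the Neuralized ligases, stood at 7.29 and 32.8 CPM in 12Q and 19.6 and 18.5 in 48Q, against 0.887 and 2.52 in WT. Its log2 fold change in 12Q was 3.54 (edgeR adjusted p = 0.0312), a call lost without 12Q replicate 2 or either WT library. In 48Q the log2 fold change of Neurl1a was 3.47, which edgeR did not call (adjusted p = 0.0676) and DESeq2 did (adjusted p = 0.000174). Among 8 genes of receptor turnover, Dtx4, of the Deltex ubiquitin ligases, rose in both tumor groups, to 25.7 and 73.9 CPM in 12Q and 76.2 and 81.9 in 48Q from 8.35 and 5.31 in WT (log2 fold changes 2.87 and 3.53, edgeR adjusted p = 0.0164 and 0.0283). Both calls were lost without either WT library, and the 48Q call also without either 48Q library (largest adjusted p = 0.0781 and 0.125). Numbl, a relative of the endocytic adaptor Numb, and Dtx1, also of the Deltex family, fell in 12Q by 3.11 and 4.22 on the log2 scale (edgeR adjusted p = 0.027 and 0.0282), and each was called in only 1 of the 6 fits that left out a library.

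Among other ligands, Dner, known from neurons, fell by 5.13 on the log2 scale in 12Q (edgeR adjusted p = 0.03, largest adjusted p = 0.118 with a library left out), and Dlk2, a Delta-like homologue that lacks the domain of the canonical ligands, had 2 counts in 12Q against 163 in WT, a CPM ratio of 0.00864 (exact 95% interval for counting error only 0.00104 to 0.0317, edgeR adjusted p = 0.0189). The call of Dlk2 was lost without 12Q replicate 2 (adjusted p = 0.0683). Of 10 corepressors Tle2, a Groucho-type corepressor, was the 1 called, at 4.74 and 3.28 CPM in 12Q against 15.2 and 45.2 in WT (fitted log2 fold change -2.91, edgeR adjusted p = 0.0201), lost without either 12Q library (largest adjusted p = 0.0898). None of the 7 tested genes of the nuclear complex, which include Rbpj, Maml1, Maml2 and Maml3, was called by edgeR in any comparison. Ep300, a histone acetyltransferase recruited by Mastermind, stood at 161 and 296 CPM in 12Q, 240 and 215 in 48Q, against 104 and 176 in WT.

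**Figure D5:**
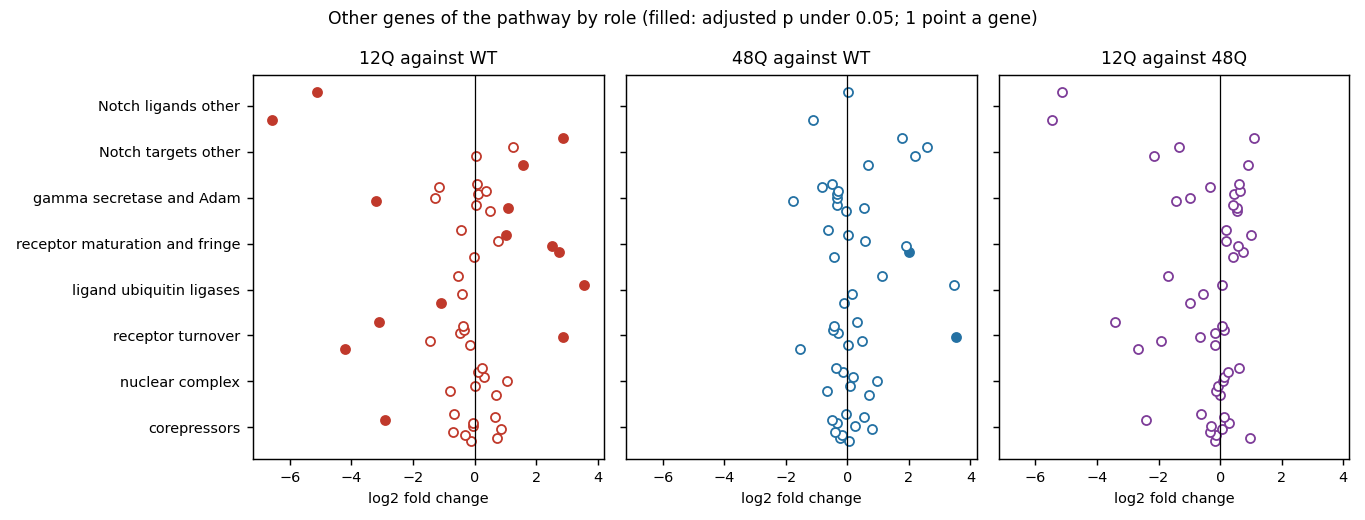
Log2 fold changes of the 50 tested further genes of the pathway, 1 point for each gene, by role and comparison. Filled points mark an adjusted p under 0.05, of which there are 15 in 12Q against WT, 2 in 48Q against WT and 0 between the tumors.

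The genes most like Dll4 and Jag2 over the 6 libraries were sought among 14234 named genes by the root mean square difference of centred log2 CPM. For Dll4 they were Prtg (0.363), Mfge8 (0.364) and Exoc3l4 (0.373). Mfge8, a secreted protein by which dying cells are tethered to phagocytes, stood at 425 and 493 CPM in 12Q, 162 and 117 in 48Q, against 16.6 and 56.0 in WT. For Jag2 they were Gypc (0.123), Lrrc29 (0.152) and Kifc2 (0.159), and Kifc2, a kinesin gene, stood at 1.44 and 2.82 CPM in 12Q, 8.10 and 10.3 in 48Q, against 7.20 and 19.4 in WT. The distances of Jag2 to its nearest genes were smaller than those of Dll4.

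Exons of Notch1, Notch2, Notch3, Dll1 and Dll4 overlap those of another gene in M21, and no source used here gives the strand setting of the counting, so the reads of such pairs cannot be told apart. For Dll4 that gene is Gm14207, which had 5 and 6 counts in the 12Q libraries, 3 in each 48Q library and 0 in each WT library. Hes1, Hey1, Jag1 and Jag2 have no such overlap. Notch4 has none by its M21 exons, but the wider interval that was counted for it was not checked. Among the other genes given values, Ctnnb1, Adam17, Dlk2, Dner, Dst, Ep300, Neurl1a, Nrarp, Numbl and Tle2 have one, so their values are uncertain likewise. The genes most like Dll4 and Jag2 and 9530053A07Rik were not checked for overlap.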

How the data were processed

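Per the labels' protocols, RNA-Bee was used to extract RNA and the Kapa RNA HyperPrep kit to make libraries. The deposited table holds raw counts of reads per gene, and the submitters' processing notes name TopHat2 2.0.14, HTSeq 0.6.0 and the mm10 build. How multiply mapped reads were treated, the strand setting and the annotation version were not given in the sources used here. Gene length in kilobases is another deposited column, and levels per kilobase use it because the counts were made on those gene models, in place of the exon union of GENCODE M21, which with the longest transcript was tried as an alternative. All 6 count columns matched a sample, and 0 columns were left without one.

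Counts were tested in 1 fit of 3 groups with edgeR 4.0.16 (quasi-likelihood F test, R 4.3.3, 3 residual degrees of freedom), with TMM scaling and filterByExpr (minimum count 10, minimum total 15), which kept 15050 of 24091 genes. P-values were adjusted by Benjamini-Hochberg over all genes tested, with a threshold of 0.05. SE is the fold change over the root of F, and 95% intervals use the test's total degrees of freedom (median 6.35). Each comparison takes the first group over the second. Alternatives were DESeq2 1.42.0 (Wald test and, separately, its size factors), library totals, no filter, only the compared groups, a replicate block and leaving out each library. The fitting code was tested on simulated counts. Totals of 26416181 to 28559546 counts set the counting precision, and intervals and floors of 3 counts cover counting error only. The biological coefficient of variation was 0.378.

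The members and all gene lists were chosen with earlier results of these data known. Named genes were the 10 members, Ctnnb1, up to 3 called genes of each pathway list per comparison by adjusted p (where none was called, the gene with the highest mean CPM), the 2 markers of each list with the highest mean CPM, and the 3 genes nearest to each called member in log2 CPM (prior count 2). Hey2, Heyl, Pdgfrb, Rgs5, Cspg4, Emcn, Trp63, Gm14207, 9530053A07Rik and marker genes at 0 were named in addition, after their values were seen. Promoters are from RefSeq, GRCm38.p6, and were to be shown for Hes1, Hey1 and up to 2 called ligands or receptors.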

Additional observations from a re-analysis of the deposited data

How the results depend on the processing

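With 2 libraries a group, wide intervals limit what a missed threshold shows, and genes with few counts in WT (Dll4, Notch3, Notch4) are the least precise. The number of genes called out of all tested was 1887 in 12Q against WT with only the compared groups in the fit. In 48Q against WT it was 2004 with library totals and 2541 with DESeq2, and in 12Q against 48Q 2499 with DESeq2. Where a library was left out, the lone library of its group is assumed to vary like the others. Leaving out 1 library gave 1861 to 2934, 0 to 1215 and 47 to 866 genes in these comparisons. Of the 10 members, DESeq2 called 4, 1 and 3, and library totals or only the compared groups called 1 in 48Q against WT, while only the compared groups called 1 in 12Q against 48Q. Leaving out 1 library gave 1 to 3, 0 to 2 and 0 to 2 members. Of the 50 other pathway genes, only the compared groups called 8 in 12Q against WT and library totals 20 (14 higher, 6 lower). In 48Q against WT library totals called 10 and DESeq2 called 6. In 12Q against 48Q DESeq2 called 8, no filter 1 and only the compared groups 2. Leaving out 1 library gave 8 to 11, 0 to 2 and 0 to 2.

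With library totals the log2 fold change turned in 12Q against WT for Notch1 (0.34), Hes1 (0.13) and Hey1 (0.48), in 48Q against WT for Jag2 (0.23), Dll1 (0.17) and Hes1 (0.0589), and in 12Q against 48Q for Ep300 (-0.16). Hey1 in 12Q against WT was 0.0051 with no filter. When 1 library was left out, values in 12Q against WT ran from -0.50 to 0.17 for Notch1, -0.39 to 0.61 for Jag1, -1.12 to 0.19 for Hes1 and -0.48 to 0.39 for Hey1. In 48Q against WT, Jag2 ran from -0.91 to 0.33. In 12Q against 48Q the ranges were -0.0397 to 0.86 for Notch2, -2.08 to 0.13 for Notch3, -0.52 to 0.82 for Hes1, -0.86 to 0.0314 for Hey1, -0.49 to 0.41 for Ep300 and -0.11 to 0.0609 for Ctnnb1. The cause of these changes was not tested.

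The replicate numbers are shared between groups, but the labels do not say what they mark, and differences of replicate 1 minus 2 correlated at 0.0252 (12Q and 48Q), 0.134 (12Q and WT) and -0.103 (48Q and WT) across 15050 genes, so they were not taken as pairs. With a replicate block 3, 0 and 0 members were called in 12Q against WT, 48Q against WT and 12Q against 48Q, the added one being Notch4 (3.77, edgeR adjusted p = 0.0385), and 15, 2 and 1 other pathway genes. Of the 15 and 2 other pathway calls made without it, 14 and 1 were kept, and those lost were Mfng in 12Q (edgeR adjusted p = 0.0569) and Lfng in 48Q (0.0544). Under that block Ep300 in 12Q against 48Q was -0.0817.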
